A study of Mus musculus with 16 samples.

Results

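Messenger RNA of 10 chaperone genes was followed in mouse rotator cuff muscle, with and without tendon removal and denervation, in a pair of mouse strains. The genes were taken by symbol from a count table of 11710 genes: Hspa8, Hspa2 and Hspa9 of the Hsp70 family, Hspa4 and Hsph1 of its Hsp110 branch, the Hsp90 genes Hsp90aa1 and Hsp90ab1, the J-domain genes Dnaja1 and Dnajb1, and Bag3. All 10 were in the table. They are usually grouped as cytosolic, but Hspa9 codes for the Hsp70 of mitochondria. Hspa8 was chosen by its own counts, for a difference between strains and between the surgery effects in them, so its values are given as a description with no test, and the same holds for its copy Gm15459. The other 9 genes were tested.

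The 16 samples formed 4 groups of 4, crossing strain with surgery. BL6 stands for C57BL/6J, a common reference strain, and MRL for MRL/MpJ, a strain studied for its repair of ear wounds. Operated mice had the tendon of the muscle removed and the muscle denervated, and unoperated mice had neither. Sample labels name the supraspinatus and the series description the infraspinatus, so the tissue is called rotator cuff muscle. The mice's age and the interval between surgery and collection are not given in the sources used here, and no transgene or drug is named. The labels do not say that replicates came from separate animals, so p-values measure only the spread between these samples, which may be technical.

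Hsp70 proteins bind short hydrophobic stretches of unfolded proteins and release them in a cycle driven by ATP. J-domain proteins such as Dnaja1 and Dnajb1 deliver clients and speed up ATP hydrolysis, and nucleotide exchange factors such as Hspa4, Hsph1 and Bag3 reset the cycle. Hsp90 takes over partly folded clients, among them kinases and hormone receptors. In skeletal muscle, Bag3 joins Hsp70 to small heat shock proteins in the removal of damaged Z-disc proteins. Many of these genes are targets of heat shock factor 1, and each family has constitutive members, such as Hspa8 and Hsp90ab1, and stress-inducible ones, such as Hsp90aa1 and Dnajb1.

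Because counts depend on where a read can be placed, the shared sequence of each gene was measured first. Hspa8 (ENSMUSG00000015656; chromosome 9, 40800984 to 40810087, plus strand, in the GENCODE M21 annotation of GRCm38) had 13 annotated copies on the same strand at 90% identity or more over at least 200 bases. Of the 2345 windows of 50 bases in its main transcript, 74.8% were also found in a transcript of another gene. Only 1 of its copies was in the count table, Gm15459 (ENSMUSG00000100801; chromosome 5, 5781615 to 5783555, minus strand), a processed pseudogene, meaning an intronless copy of the messenger RNA. It spans the 1941 coding bases of Hspa8 with no gap and with 99.742% identity, and it alone shared 70.0% of the windows. On the opposite strand the long noncoding RNA gene Gm26825 (chromosome 5, 5781530 to 5783636, plus strand) covers all of Gm15459. Gm26825 was not in the count table. The 5 differences, with positions counted from 1 at the first coding base and Hspa8's base first, are G114A, C414T, C549T, G1222A and C1440T. The rest of the 2394-base main transcript of Hspa8, outside its coding bases, has no counterpart in Gm15459. The differences are shown in windows of 31 bases, with the differing base in capitals. A read that lies within the coding bases and covers none of them is equal in both genes.
Hspa8 at G114A: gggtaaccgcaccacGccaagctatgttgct
Gm15459 at G114A: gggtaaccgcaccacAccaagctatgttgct
Hspa8 at C414T: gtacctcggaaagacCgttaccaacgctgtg
Gm15459 at C414T: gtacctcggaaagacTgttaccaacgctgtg
Hspa8 at C549T: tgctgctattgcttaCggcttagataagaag
Gm15459 at C549T: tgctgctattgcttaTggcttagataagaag
Hspa8 at G1222A: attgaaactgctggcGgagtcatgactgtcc
Gm15459 at G1222A: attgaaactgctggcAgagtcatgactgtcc
Hspa8 at C1440T: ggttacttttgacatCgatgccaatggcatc
Gm15459 at C1440T: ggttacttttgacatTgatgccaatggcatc

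The other chaperone genes shared less sequence. Hsp90aa1 (chromosome 12, 110690605 to 110702728) had 5 copies and 58.5% of windows shared, and Dnaja1 (chromosome 4, 40722150 to 40737149) had 3 copies and 28.8%. None of those 8 copies was in the table. Hsp90ab1 (chromosome 17, 45567775 to 45573271) had 5 copies but only 4.45% of windows shared, and 1 of its copies, the processed pseudogene Gm6368 on chromosome X, was counted. Hspa9 (chromosome 18, 34937414 to 34954357) had 1 copy and 4.10% of windows shared. Dnajb1 (chromosome 8, 83608193 to 83612653) had no copy and 0.441%. No window was shared for Hspa4 (chromosome 11, 53259814 to 53300457), Hspa2 (chromosome 12, 76404176 to 76406938), Hsph1 (chromosome 5, 149614287 to 149636376) or Bag3 (chromosome 7, 128523616 to 128546981). Dnaja1 also overlaps the gene Smu1 on the opposite strand by 608 bases. Whether the counting used strand or multiply placed reads is not given in the sources used here, so values of Hspa8, Gm15459, Hsp90aa1 and Dnaja1 are uncertain to that extent.

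**Figure D1:**
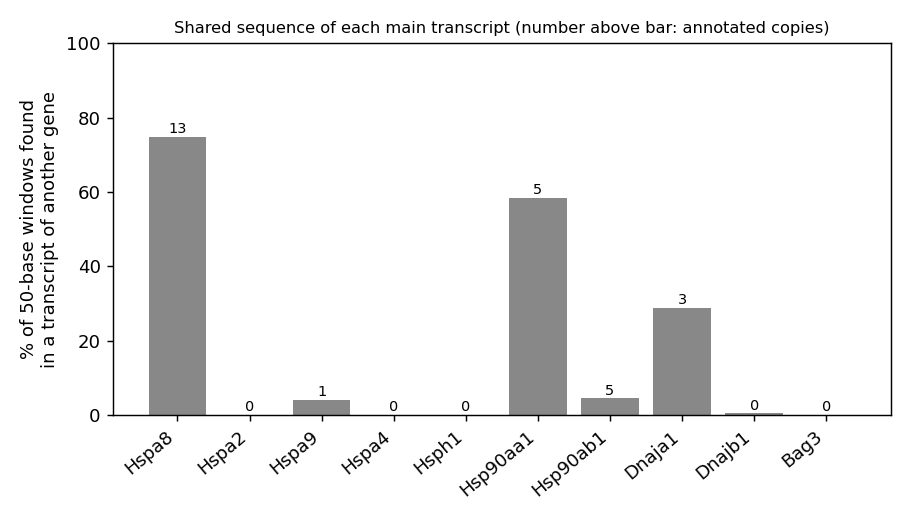
Percent of the 50-base windows in the main transcript of each gene (y axis) that are also found in a transcript of another gene, with the number of annotated copies above each bar. Hspa8 has the highest bar at 74.8% and 13 copies, followed by Hsp90aa1 at 58.5% and Dnaja1 at 28.8%.

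Total counts per sample ranged from 24323862 to 43552964. CPM are counts scaled to a fixed library total, on library sizes adjusted by the trimmed mean of M values (TMM). On that scale 3 counts, taken as a floor for reading low values, were worth 0.0718 to 0.122 CPM. A count of 0 was kept as 0 CPM. Intervals and floors cover counting error only, since no molecular identifiers are named and reads may repeat a molecule. In BL6 the operated totals, 26469749 to 31094642, all lay under the unoperated ones, 33679319 to 43552964. Muscle fibre markers (7 genes) summed to 76868 CPM or more in unoperated samples and to 35934 to 84508 CPM in operated ones. The sums of endothelial and adipocyte markers were higher in every operated than in any unoperated sample of the same strain, with adipocyte sums (5 genes) of 1100.0 to 1918 CPM against 212 to 375 CPM. No marker was at 0 in a whole group. In bulk tissue, fewer cells of a type and less RNA per cell cannot be told apart. Operated MRL replicate 4 stood apart: its mitochondrial genes took 11.8% of counts, against 20.1 to 24.9% in the other operated MRL samples and 11 to 11.6% in unoperated MRL, and its Schwann cell markers (5 genes) summed to 63.4 CPM, within the unoperated MRL range of 38.4 to 83.4 CPM. Its adipocyte sum of 1100.0 CPM was nevertheless above the unoperated MRL range of 267 to 375 CPM. Whether this sample was operated to the same extent as the others, or carries the right label, is not known, so operated MRL values hold only as far as its label does. Where leaving it out changes a call for one of the chaperones, the value without it is given. Operated BL6 replicate 4 also differed from its group. It had the lowest muscle fibre sum of the study, 35934 CPM, and the highest fibroblast sum (5 genes), 7336 CPM. Its TMM factor, 1.27, was the largest of the study. Leaving out this BL6 sample changed the BL6 calls of Hspa2 and Bag3, given with those genes.

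Hspa8, the constitutive Hsp70 that also uncoats clathrin vesicles, was the only one of the 10 genes with a large difference between strains. In unoperated BL6 the samples held 197, 147, 171 and 195 CPM and in operated BL6 414, 390.0, 315 and 284 CPM. In unoperated MRL they held 19.3, 19.0, 16.9 and 18.6 CPM and in operated MRL 14, 18.0, 14.2 and 18.6 CPM. All 8 BL6 samples therefore lay above all 8 MRL samples, every operated BL6 sample lay above every unoperated one, and the MRL groups overlapped. The group means were 178 ± 23.4 and 351 ± 61.3 CPM in BL6 and 18.4 ± 1.09 and 16.2 ± 2.41 CPM in MRL (SD, n = 4). The log2 fold change of MRL against BL6 was -3.27 (SE 0.15) among unoperated and -4.44 (SE 0.16) among operated samples, which is 9.62-fold and 21.6-fold lower. For surgery it was 0.98 (SE 0.14) in BL6 and -0.19 (SE 0.14) in MRL, with a difference between these of -1.17 (SE 0.20). The surgery and strain comparisons share samples and are not independent of each other. These are the values for which the gene was picked.

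The copy Gm15459 had the opposite order of strains. It was counted 16, 17, 16 and 18 times in unoperated BL6 and 3, 9, 0 and 13 times in operated BL6, at or under 0.487 CPM. In unoperated MRL it was counted 1615, 2668, 2160 and 2470 times, or 49.4, 68.2, 69.7 and 66.9 CPM, and in operated MRL 351, 602, 412 and 2528 times, or 14.3, 20.9, 14.6 and 66.5 CPM. Every MRL sample was far above every BL6 sample, and in operated MRL replicate 4 stood with the unoperated samples. Without that sample the operated MRL range was 14.3 to 20.9 CPM, below the unoperated MRL samples.

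As a share of the counts of Hspa8 and Gm15459 together, the copy took 0.243 to 0.275% in unoperated BL6 and 0 to 0.130% in operated BL6. The 0 of 8795 counts in operated BL6 replicate 3 allows up to 0.0419% (exact Clopper-Pearson 95% interval). In MRL its share was far larger: 71.9, 78.2, 80.5 and 78.3% in the unoperated samples and 50.4, 53.8, 50.8 and 78.2% in the operated ones. The exact 95% intervals of operated MRL replicates 1 to 3 together spanned 46.6 to 56.7%, and that of replicate 4 was 76.7 to 79.6%. The share was thus lower in 3 of the 4 operated MRL samples than in any unoperated one.

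**Figure D2:**
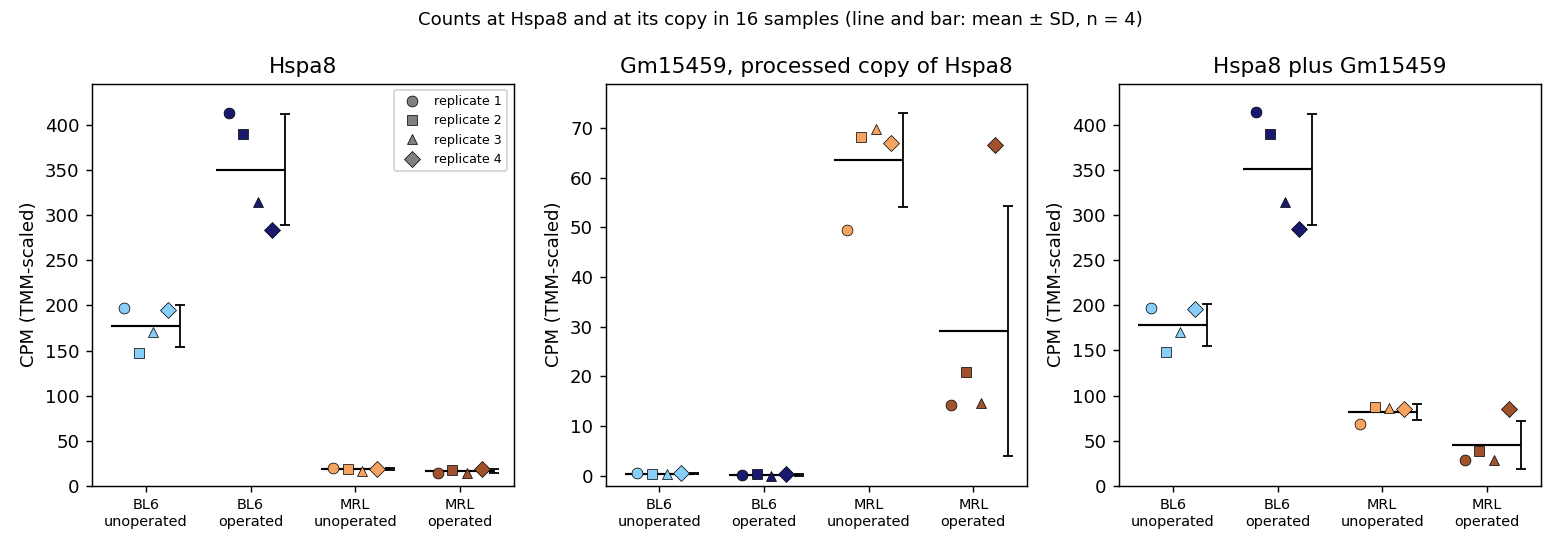
TMM-scaled CPM (y axes, from 0 with a small margin below 0 for the copy) of Hspa8, of its copy Gm15459 and of their sum in the 4 samples of each group, with the mean and SD (n = 4). Hspa8 lies at 147 to 414 CPM in BL6 and 14 to 19.3 CPM in MRL, while Gm15459 lies at or under 0.487 CPM in BL6 and at 14.3 to 69.7 CPM in MRL.

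**Figure D3:**
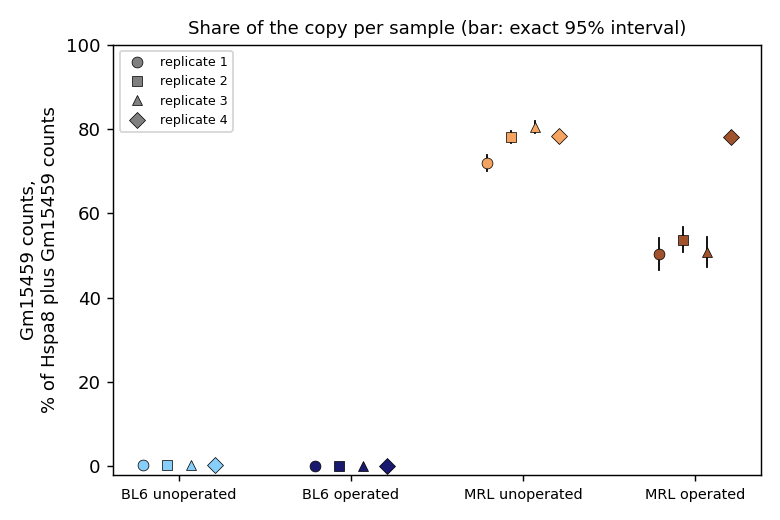
Counts of Gm15459 as a percent of the counts of Hspa8 plus Gm15459 (y axis) in each sample, with exact 95% binomial intervals as bars, for the 4 groups. The BL6 samples sit at 0.275% or lower, the unoperated MRL samples at 71.9 to 80.5%, and operated MRL replicate 4, at 78.2%, is apart from the other operated MRL samples at 50.4 to 53.8%.

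Adding the counts of Gm15459 to Hspa8 narrowed the gap between strains without closing it. The sum was 178 ± 23.4 and 351 ± 61.3 CPM in unoperated and operated BL6 and 82.0 ± 8.89 and 45.3 ± 27.0 CPM in MRL (SD, n = 4). The sum's log2 fold change of MRL against BL6 was -1.12 (SE 0.28) among unoperated samples and -2.95 (SE 0.30) among operated ones. For surgery it was 0.98 (SE 0.28) in BL6 and -0.85 (SE 0.28) in MRL, and the difference between the surgery effects was -1.83 (SE 0.39). By sample, the sum was 68.7, 87.2, 86.5 and 85.5 CPM in unoperated MRL and 28.3, 38.8, 28.8 and 85.1 CPM in operated MRL, so in operated MRL only replicate 4 reached the unoperated range. Without that sample the surgery value of the sum in MRL was -1.36 (SE 0.17) and the difference between the surgery effects was -2.34 (SE 0.22). Reads of Hspa8 placed at the other 12 annotated copies, or placed nowhere, do not appear in this sum, and their part in the difference was not tested. Whether counts at Gm15459 include reads of Gm26825 on the opposite strand was not tested either. The sequence of Hspa8 and its copies in MRL mice was not analysed here.

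Among the other 9 genes, Hspa2, Dnaja1 and Dnajb1 rose after surgery in BL6 and Hspa4 and Hspa9 fell by edgeR's quasi-likelihood test with Benjamini-Hochberg adjustment (called means an adjusted p under 0.05). That is 5 of 9 genes, where 67.9% of the 11709 genes tested were called (35.1% higher and 32.8% lower), so the share of chaperones called was near that of all genes. In MRL Hspa2, Hsp90aa1, Dnaja1 and Bag3 rose and Hspa9 fell, again 5 of 9, against a background of 45% (22.3% higher and 22.7% lower). Their median log2 fold change was -0.26 in BL6 and 0.49 in MRL, beside 0.04 and 0.01 over all genes. As medians of 9, these are the values of Hsp90ab1 and of Bag3. Gene by gene, the median difference between the surgery effects was 0.26, with 0 of 9 called against 0.248% of all genes. Every sample of one group lay above every sample of the other for 4 of the 9 in BL6 and for 3 of the 9 in MRL, against 56.8% and 33.7% of all genes. The MRL count is less stable than the BL6 one. On leaving out each of the 16 samples in turn, 4 to 6 genes were called in BL6 and 1 to 5 in MRL, where only Dnaja1 was called without unoperated replicate 3.

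Hspa2, an Hsp70 best known from male germ cells, was the least abundant Hsp70 of the set. Unoperated BL6 held 5.56, 5.34, 6.05 and 4.57 CPM and operated BL6 6.82, 5.81, 9.70 and 11 CPM. It rose after surgery in BL6, with a log2 fold change of 0.63 (SE 0.22, edgeR adjusted p = 0.0206), although operated replicate 2 lay within the unoperated range. Unoperated MRL held 4.71, 6.16, 4.16 and 5.25 CPM and operated MRL 7.11, 7.11, 6.99 and 12.3 CPM. There it rose by 0.73 (SE 0.23, edgeR adjusted p = 0.0178), and all operated samples lay above the unoperated ones. Without operated replicate 4, the sample that stands apart, the MRL rise was 0.48 and was not called (edgeR adjusted p = 0.0634). Without unoperated replicate 3 it was 0.65 with an adjusted p of 0.0579. Scaled by total counts only, the MRL rise was 0.80 and not called. In BL6 Hspa2 was not called without operated replicate 4 (0.46, adjusted p = 0.0855), operated replicate 3 (0.56, adjusted p = 0.0589) or unoperated replicate 4 (0.56, adjusted p = 0.0605). Operated BL6 replicate 4, the highest BL6 sample for Hspa2, also held the highest fibroblast marker sum of the study, 7336 CPM over 5 genes, and the lowest muscle fibre sum, 35934 CPM. The part of cell makeup in the rise was not tested.

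Hspa9, which imports proteins into the mitochondrial matrix and folds them there, fell in both strains. Unoperated BL6 held 563, 547, 631 and 670.4 CPM and operated BL6 384, 440.0, 324 and 245 CPM. Every operated BL6 sample was below every unoperated one, and the log2 fold change was -0.79 (SE 0.18, edgeR adjusted p = 0.00126). Unoperated MRL held 463, 558, 558 and 595 CPM and operated MRL 379, 389, 280.3 and 457 CPM, again with no overlap, although operated replicate 4 came within a few CPM of unoperated replicate 1. The MRL log2 fold change was -0.53 (SE 0.18, edgeR adjusted p = 0.0249). Hspa9 kept its BL6 call without any one sample, with values from -0.92 to -0.66. In MRL it lost its call when unoperated replicate 2, 3 or 4 or operated replicate 1 or 3 was left out, with values from -0.53 to -0.41 and adjusted p of 0.0521 to 0.0875, and without the sample that stands apart it was -0.64 with an adjusted p of 0.00836. Muscle fibre markers were lower in the same operated samples, and the part of fibre content in the fall was not tested.

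The Hsp110 proteins Hspa4 and Hsph1 exchange the nucleotide of Hsp70 and keep aggregating proteins soluble. Hspa4 was at 161, 131, 134 and 151 CPM in unoperated BL6 and at 105, 109, 87.8 and 81.1 CPM in operated BL6. It fell, with no overlap between the groups and a log2 fold change of -0.59 (SE 0.14, edgeR adjusted p = 0.00218), and was called without any one sample. In MRL it was at 127, 137, 139 and 148 CPM before and at 105, 129.9, 85.8 and 139 CPM after surgery, and these groups overlapped. The MRL log2 fold change of -0.26 (SE 0.14) was not called in edgeR (adjusted p = 0.152), but without operated replicate 4 it was -0.36 with an adjusted p of 0.0399. Hsph1, the inducible Hsp110, was at 198, 123, 147 and 167 CPM before and 147, 131, 103 and 107 CPM after surgery in BL6. In MRL it was at 139, 119, 127 and 103 CPM before and 146, 177, 77.6 and 95 CPM after. The groups overlapped in both strains. Its log2 fold change was -0.38 (SE 0.22, adjusted p = 0.144) in BL6 and 0.02 (SE 0.22, adjusted p = 0.937) in MRL, so neither was called in edgeR.

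The Hsp90 genes differed in level and in spread. Hsp90ab1, the constitutive form, held 1036, 974, 1119 and 1157 CPM in unoperated and 988, 1055, 781 and 747 CPM in operated BL6. In MRL it held 1021, 1170.4, 1053 and 1055 CPM before and 902, 1019, 731 and 1089 CPM after surgery. Operated and unoperated samples overlapped in both strains, and neither log2 fold change, -0.26 (SE 0.15, adjusted p = 0.125) in BL6 and -0.20 (SE 0.15, adjusted p = 0.273) in MRL, was called in edgeR. Without operated BL6 replicate 2 the BL6 value was -0.35 and called, with an adjusted p of 0.0466. Its copy Gm6368 was counted 1 to 5 times in any BL6 sample, 180 to 245 times in unoperated MRL and 56, 104, 69 and 213 times in operated MRL. Every MRL sample was above every BL6 sample, which is given with no test, since its BL6 counts lay under the filter minimum of 10 and only the MRL samples carried it into the fit. As with Gm15459, operated MRL replicate 4 held the copy at the unoperated MRL level. The copy was small beside Hsp90ab1 itself: adding its counts left unoperated MRL at 1081 ± 65.8 CPM, against 1075 ± 65.6 CPM for Hsp90ab1 alone.

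Hsp90aa1, the inducible form, held 21.3, 6.85, 7.11 and 9.99 CPM in unoperated BL6 and 10.7, 7.79, 5.62 and 8.50 CPM in operated BL6. Replicate 1 of unoperated BL6 was the high sample. In MRL it held 8.10, 8.31, 7.87 and 8.26 CPM before and 20.1, 26.6, 7.85 and 10.4 CPM after surgery, so that 3 operated samples lay above, and replicate 3 just under, the narrow unoperated range. It rose in MRL, with a log2 fold change of 0.997 (SE 0.38, edgeR adjusted p = 0.0439). The call was lost when any one of unoperated MRL replicates 1 to 4, operated MRL replicate 1 or 2, or unoperated BL6 replicate 4 was left out, with values from 0.65 to 1.01 and adjusted p of 0.0528 to 0.171. It was also lost when scaled by total counts only (1.02, edgeR adjusted p = 0.0548) and with limma-voom (0.80, adjusted p = 0.0938). The BL6 value was -0.47 (SE 0.38, adjusted p = 0.280), and 0.03 without unoperated BL6 replicate 1. The difference between the surgery effects, 1.47 (SE 0.54), was not called in edgeR (unadjusted p = 0.0151, adjusted p = 0.234).

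The J-domain gene Dnaja1 was called higher in both strains, with no overlap between operated and unoperated samples. It held 20.2, 12.9, 12.1 and 14.5 CPM in unoperated and 28.8, 27.7, 20.9 and 25.4 CPM in operated BL6. Every operated sample was above every unoperated one, with a log2 fold change of 0.79 (SE 0.24, edgeR adjusted p = 0.00839). In MRL it held 16.3, 14.2, 14 and 16 CPM before and 38.0, 46.1, 23.0 and 18.7 CPM after surgery, again with no overlap, and the log2 fold change was 1.06 (SE 0.24, adjusted p = 0.00378). The call held in both strains without any one sample, with values of 0.70 to 0.97 in BL6 and 0.81 to 1.24 in MRL. Smu1, the splicing gene that overlaps Dnaja1 on the other strand, was not called in either strain (log2 fold changes of 0.09 and -0.06).

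Dnajb1, the main inducible partner of Hsp70, held 8.47, 6.01, 5.66 and 6.33 CPM in unoperated and 11.7, 10.6, 10.7 and 21 CPM in operated BL6. It rose there with no overlap, with a log2 fold change of 1.03 (SE 0.29, edgeR adjusted p = 0.00523), which was 0.73 and still called (adjusted p = 0.0249) without operated replicate 4. In MRL it held 7.73, 10.3, 9.16 and 10.9 CPM before and 9.26, 24.3, 11.8 and 11 CPM after surgery. Those groups overlapped, replicate 2 was the high sample, and the log2 fold change of 0.56 (SE 0.28, adjusted p = 0.115) was not called in edgeR. Without operated MRL replicate 2 it was 0.16.

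Bag3, the exchange factor of chaperone-assisted autophagy, held 213, 176, 183 and 174 CPM in unoperated and 274, 265, 234 and 191 CPM in operated BL6. In MRL it held 189, 186, 146 and 189 CPM before and 284, 330.2, 167 and 219.7 CPM after surgery. In both strains 3 of 4 operated samples lay above all unoperated ones. The MRL rise of 0.49 (SE 0.18, edgeR adjusted p = 0.0388) was called, and the BL6 value of 0.37 (SE 0.18, adjusted p = 0.0832) was not. Both calls depended on single samples. In BL6 Bag3 was called without operated BL6 replicate 4 (0.46, adjusted p = 0.0375) or operated MRL replicate 3 (0.37, adjusted p = 0.0418). In MRL it was not called without unoperated replicate 2, 3 or 4 or operated replicate 1 or 2, with values from 0.33 to 0.52 and adjusted p of 0.0570 to 0.144. Nor was it called there with limma-voom (0.46, adjusted p = 0.0517) or with only the groups compared (0.49, edgeR adjusted p = 0.072).

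**Figure D4:**
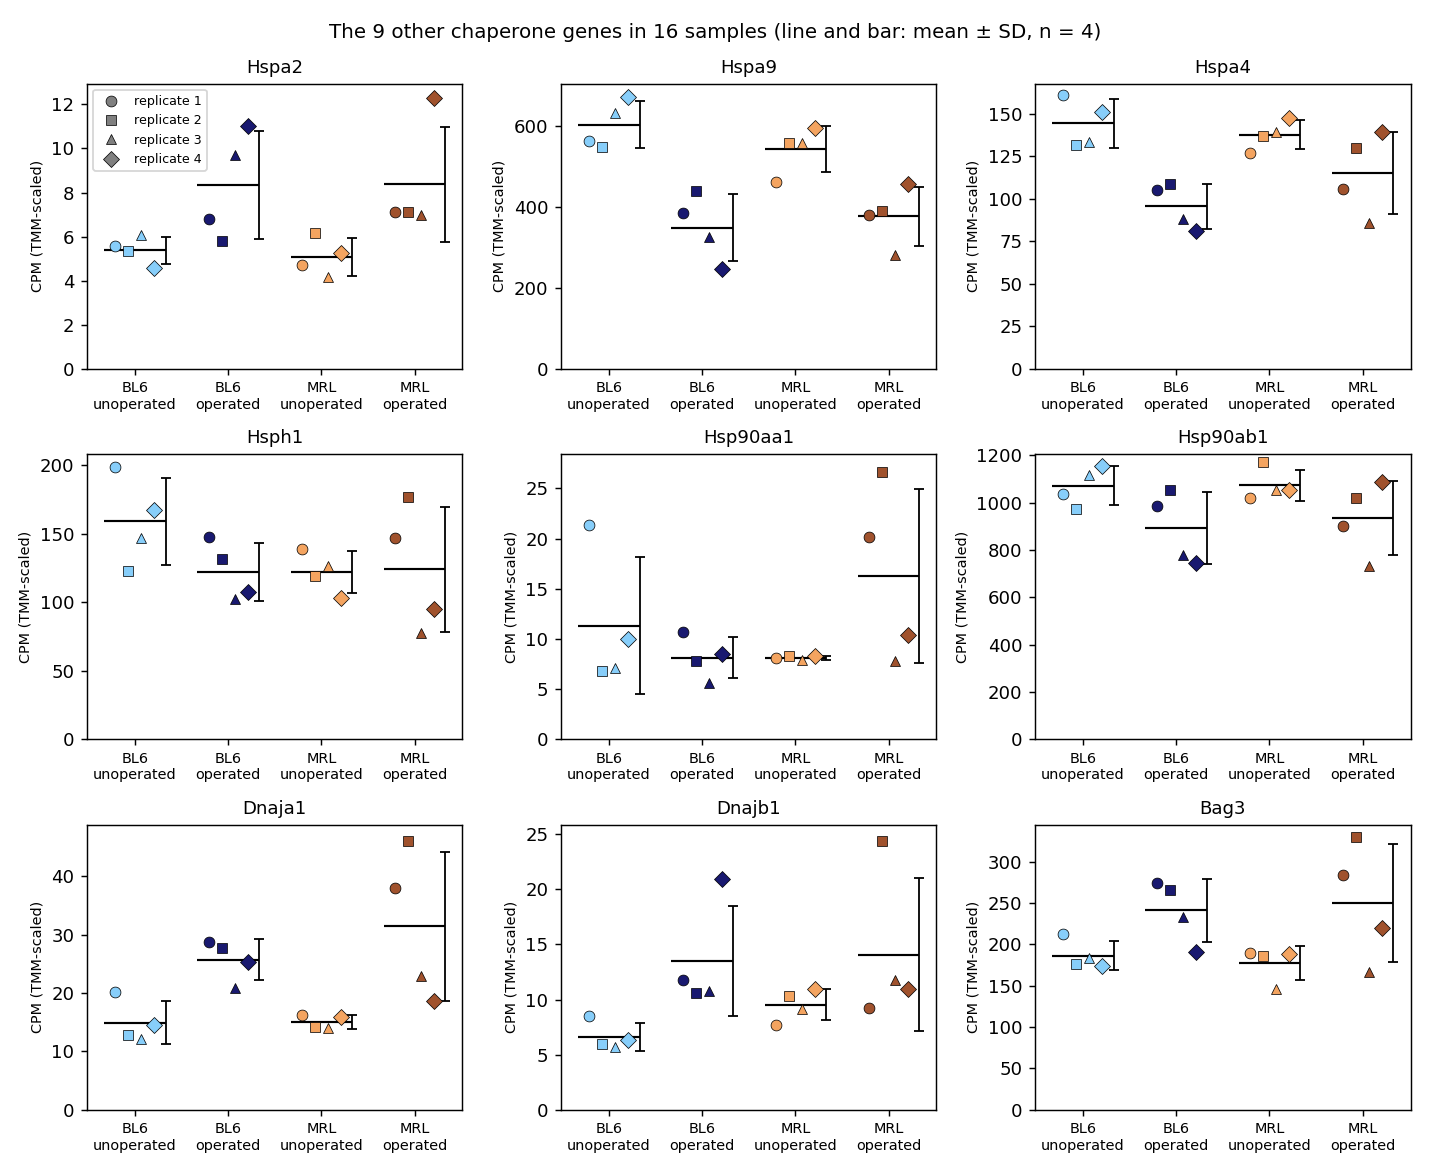
TMM-scaled CPM (y axes, from 0) of the 9 tested chaperone genes in the 4 samples of each group, with the mean and SD (n = 4). Dnaja1 is higher and Hspa9 lower in every operated sample than in any unoperated sample of the same strain, while Hsp90ab1 and Hsph1 overlap in both strains.

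None of the 9 tested genes was called between strains. Among unoperated samples 0 of 9 were called in edgeR, 0 had an unadjusted p under 0.05, and 10.4% of all genes were called (5.02% higher and 5.36% lower in MRL). Among operated samples 0 of 9 were called against 12.9% of all genes (7.6% higher and 5.27% lower). There 1, Hsp90aa1, had an unadjusted p under 0.05 (0.0194, adjusted p = 0.104, log2 fold change 0.997). The surgery effect differed between strains in 0 of 9 against 0.248% of all genes (0.154% higher and 0.0939% lower in MRL), and Hsp90aa1 was again the 1 gene with an unadjusted p under 0.05. DESeq2 also called 0 of 9 in each of these comparisons. No gene of the 9 had strain groups that did not overlap, against 25.1% of all genes unoperated and 13.6% operated. Their strain differences ran from -0.47 (Hsp90aa1) to 0.53 (Dnajb1) in log2 among unoperated samples and from 0.01 (Hspa2) to 0.997 (Hsp90aa1) among operated ones. Hsp90aa1 was called higher in operated MRL than in operated BL6 when operated MRL replicate 3 was left out (1.23, edgeR adjusted p = 0.0386).

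**Figure D5:**
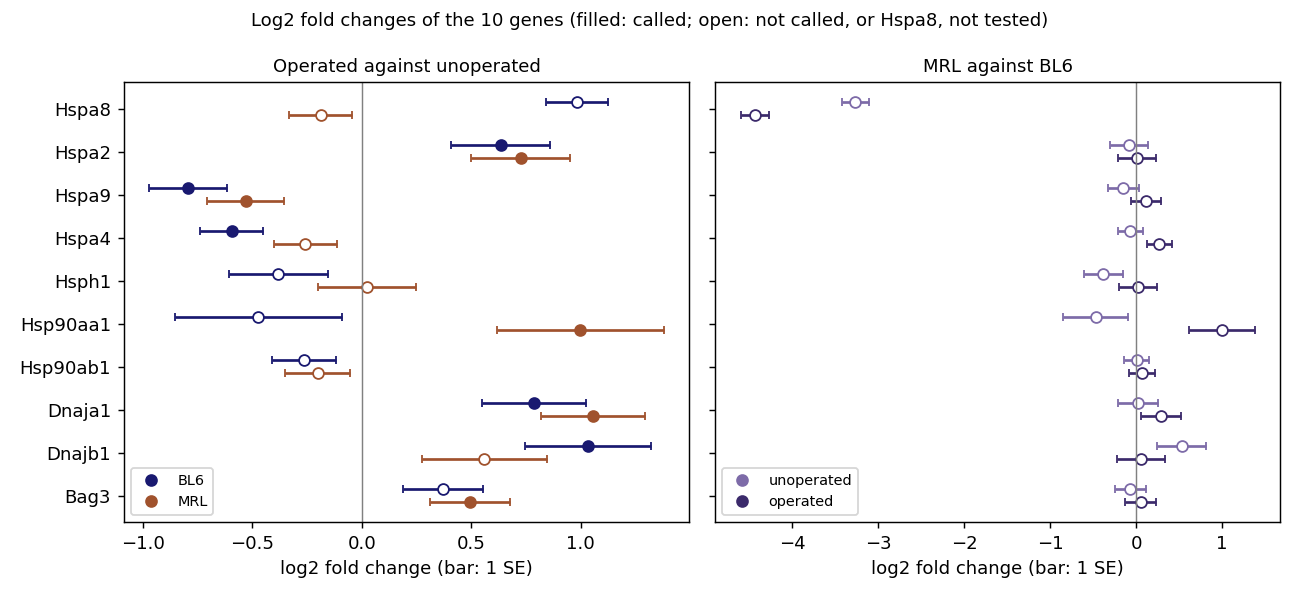
Log2 fold changes (x axis, bars of 1 SE) of the 10 genes for surgery in each strain (left) and for MRL against BL6 in each surgical state (right), with filled points for calls at an adjusted p under 0.05. In the strain panel Hspa8, which was not tested, lies at -3.27 and -4.44, and the other genes lie between -0.47 and 0.997 with no call.

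Single samples were the extreme of their group for several of these genes. Unoperated BL6 replicate 1 was the highest of its group for 7 of the 10 genes, and operated MRL replicate 3 was the lowest of its group for 7 of the 10. These were the most extreme of the 16 samples, and unoperated BL6 replicate 2 was the lowest for 6. The same count over all genes was not made, so nothing particular to the chaperones is read from it. The 10 genes together summed to 2380 ± 177 CPM in unoperated BL6, 2107 ± 354 CPM with surgery, and in MRL to 2112 ± 99.9 and 1887 ± 339 CPM (SD, n = 4), with overlap of operated and unoperated samples in both strains.

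Per kilobase of main transcript, the scale on which genes can be compared, the level in unoperated BL6 was highest for Hsp90ab1 at 425 CPM per kb. Hspa9 followed at 198, Hspa8 at 74.2 and Bag3 at 72.8 CPM per kb, and the last 2 did not differ beyond their spread. Hsph1 was at 41.8 and Hspa4 at 31.2 CPM per kb. Hsp90aa1, Dnaja1, Dnajb1 and Hspa2 were lowest, at 3.45, 2.65, 2.21 and 2.13 CPM per kb, and these 4 were not separable given the spread of Hsp90aa1. In unoperated MRL the order was the same at the top, but Hspa8 stood at 7.70 CPM per kb, below Bag3 (69.4), Hsph1 (32.1) and Hspa4 (29.8). In operated BL6 Hspa8 was at 146 CPM per kb, above Hspa9 at 114. These levels assume that the main transcript is the one expressed, and reads counted at copies are not included for Hspa8, Hsp90aa1 and Dnaja1.

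Heat shock factors bind inverted repeats of GAA. The 8-base forms GAANNTTC and TTCNNGAA, each its own reverse complement and so equal on both strands, were looked for from 250 bases before to 50 bases after the RefSeq starts (build GRCm38.p6). The table held 10 promoters of 6 of the 10 genes: Hspa4, Hspa2, Hsph1, Dnaja1, Dnajb1 and Bag3. Hsph1, Dnaja1 and Bag3 held GAANNTTC in at least 1 promoter and Hsph1 also TTCNNGAA. A gene with several starts has more chances of a match than the single promoters that follow. Among all 32851 promoters, 7.86% held the first form, 8.52% the second and 15.1% either. The Hsph1 match at 33 bases before a start is shown because it is the only one of that gene that lies before its start, and the Dnaja1 match because that gene was called in both strains. In both the motif is in capitals.
Hsph1, chr5:149636351-149636380, minus strand: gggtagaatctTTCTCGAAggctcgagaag
Dnaja1, chr4:40722333-40722362, plus strand: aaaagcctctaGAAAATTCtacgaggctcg
Dnaja1 was called higher after surgery in both strains, Bag3 in MRL and Hsph1 in neither. Of the searched genes without a match, Hspa2 was called higher in both strains and Dnajb1 higher in BL6. Hspa4, also without a match, was called lower in BL6. A match is a description of letters in these windows and no evidence of binding.

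The wider chaperone network was read from 8 lists of related genes. The counts stand against 67.9% of all genes called after surgery in BL6 (35.1% higher and 32.8% lower) and 45% in MRL (22.3% higher and 22.7% lower), and nothing particular to a list is read from them. Of the Hsp70 family without Hspa8, 8 of 14 were called in BL6 (2 higher, 6 lower, median log2 fold change -0.33) and 6 of 14 in MRL (4 higher, 2 lower, median -0.03, which was 0.03 when scaled by total counts only), near or under those shares of all genes. Without operated MRL replicate 4, an alternative added after seeing the data, the MRL split was 3 higher and 5 lower, where 52.5% of all genes were called. In BL6 Hspa12b, an endothelial relative of Hsp70, rose most, from 18.5 ± 3.57 to 52.1 ± 9.71 CPM (SD, n = 4; log2 fold change 1.49, edgeR adjusted p = 7.878e-05), where the endothelial marker sum (4 genes) also went from 252 to 351 CPM up to 497 to 630 CPM. The part of endothelial content was not tested. Hspa4l, a further Hsp110, fell most, with a log2 fold change of -1.10 (adjusted p = 0.000467). In MRL the inducible Hspa1a had the largest rise, from 3.87 ± 2.06 to 28.6 ± 28.3 CPM (log2 fold change 2.88, SE 0.74, adjusted p = 0.00723). Its BL6 means were 5.85 ± 6.53 CPM unoperated and 14.6 ± 5.01 CPM operated. Hspa1a and Hspa1b are near-identical, so counts split between them are uncertain. Between strains 1 of 14 was called in each surgical state, against 10.4% of all genes unoperated and 12.9% operated. Hspa12a was lower in unoperated MRL (-0.63) and Hspa13 higher in operated MRL (0.51). Neither was called when scaled by total counts only. Without operated MRL replicate 4 the Hspa13 value was 0.41 and not called (edgeR adjusted p = 0.0635).

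Of the Hsp90 family, 1 of 4 was called in BL6 and 2 of 4 in MRL. Trap1, the mitochondrial Hsp90, fell in both, with log2 fold changes of -0.75 and -0.58 (edgeR adjusted p = 0.00172 and 0.0156). Of 20 Hsp90 co-chaperones, 12 were called in BL6 (5 higher, 7 lower) and 8 in MRL (4 higher, 4 lower), against 67.9% and 45% of all genes. Scaled by total counts only, the MRL split was 2 higher and 3 lower. Stub1, the ubiquitin ligase CHIP that acts on Hsp70 and Hsp90 clients, had the largest rise in BL6 (0.76, adjusted p = 0.000105), and Ptges3, the p23 co-chaperone, in MRL (0.91, adjusted p = 0.00384). The BL6 means of Ptges3 also went up, from 13.8 ± 2.67 to 23.0 ± 3.37 CPM. Cdc37l1 fell most in both strains, with log2 fold changes of -0.92 and -0.67, and was lower in unoperated MRL than in unoperated BL6, at 46.4 ± 5.21 against 94.7 ± 5.94 CPM (log2 fold change -1.03, adjusted p = 0.000648). Nudc, a dynein and Hsp90 co-factor, had the largest strain difference of the list among operated samples, lower in MRL by a log2 fold change of -1.07 (adjusted p = 1.598e-06). In each surgical state 4 of 20 were called between strains (1 higher in MRL, 3 lower), against 10.4% of all genes unoperated and 12.9% operated. Cdc37 was higher in MRL, by 0.35 unoperated and 0.35 operated. Without operated MRL replicate 4 its operated value was 0.32 and not called (edgeR adjusted p = 0.0717).

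Of 36 J proteins analysed (Dnajc6 was not analysed here), 21 were called in BL6 (4 higher, 17 lower) and 15 in MRL (2 higher, 13 lower). The medians were -0.21 and -0.18, beside 0.04 and 0.01 for all genes. The counts of called genes were near or under the shares of all genes called, 67.9% and 45%. Dnaja1 was among those called higher in both strains, and Dnajb1 in BL6. Scaled by total counts only, the BL6 split was 7 higher and 11 lower, with a median of -0.06. Dnajc27, a Rab-like member, fell most in both strains, from 130.1 ± 25.2 to 39.7 ± 15.3 CPM in BL6 and from 149 ± 36.8 to 62.3 ± 30.1 CPM in MRL. Between strains 3 of 36 were called unoperated (2 higher in MRL, 1 lower) and 2 operated (2 higher). These stand against 10.4% and 12.9% of all genes. Dnajb9 was higher in operated MRL, by a log2 fold change of 0.62 (edgeR adjusted p = 0.0129). Of 13 nucleotide exchange factors, 8 were called in BL6 (2 higher, 6 lower) and 5 in MRL (2 higher, 3 lower), against the same shares of all genes. Scaled by total counts only, the BL6 split was even, at 4 higher and 4 lower. Bag5 had the largest rise in BL6 (0.48, edgeR adjusted p = 0.00194), and Bag2 the largest fall in MRL (-0.84, adjusted p = 0.00229). The BL6 means of Bag2 also went down, from 29.3 ± 3.13 to 14.8 ± 3.10 CPM. Sil1, the exchange factor of the endoplasmic reticulum, was lower in MRL, by a log2 fold change of -0.58 unoperated and -0.83 operated. Grpel1 was higher in operated MRL, by 0.49, but not called without operated MRL replicate 4 (0.375, edgeR adjusted p = 0.0548). Between strains 1 of 13 was called unoperated (lower in MRL) and 3 operated (1 higher, 2 lower), against 10.4% and 12.9% of all genes.

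Of 6 Bag3 partners, 4 were called in BL6 (3 higher, 1 lower) and 2 in MRL (1 higher, 1 lower), against 67.9% and 45% of all genes. Stub1 rose and Synpo2, a Z-disc adaptor, fell in both, with log2 fold changes of -1.06 and -0.53 for Synpo2 (edgeR adjusted p = 0.000373 and 0.0430). Scaled by total counts only, the MRL fall of Synpo2 was -0.46 and not called (adjusted p = 0.0664). Hspb6, a small heat shock protein, was lower in MRL, at 679 ± 57.0 against 1037 ± 88.7 CPM unoperated (adjusted p = 0.0136) and 774 ± 105 against 1396 ± 261 CPM operated (adjusted p = 0.00112). By total counts only the unoperated difference of Hspb6 was -0.47 and not called (adjusted p = 0.0777). Hspb6 was the 1 of 6 called between strains in each surgical state, against 10.4% of all genes unoperated and 12.9% operated. Of 4 heat shock factor genes, Hsbp1 rose and Hsf1 fell in BL6, with a log2 fold change of -0.31 for Hsf1 (edgeR adjusted p = 0.0133), and 0 were called in MRL. Hsf1 was not called by total counts only (-0.19, adjusted p = 0.0571). Of 8 subunits of the chaperonin TRiC, which folds actin and tubulin, 1 was called in BL6 (Cct4, 0.45) and 0 in MRL, under the shares of all genes. By total counts only these counts were 3 and 1, all higher. No gene of any list had a surgery effect that differed between strains at an adjusted p under 0.05.

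Other genes had a strain pattern close to that of Hspa8. Over the 16 samples, the log2 CPM of Rpl35a, Rpl34, Nxpe4, Rpl14 and Rps2 followed Hspa8 most closely among 9611 named genes of at least 5 CPM, with Pearson correlations of 0.991, 0.990, 0.988, 0.987 and 0.986 and Spearman's rho of 0.838, 0.835, 0.862, 0.779 and 0.83. These values are a description: the samples form a cluster per strain, so each mostly restates a strain difference. Of these 5 genes 4 code for ribosomal proteins. Rpl35a had 23 annotated copies, Rpl34 10, Rpl14 1 and Rps2 74, and Nxpe4 had none. The share of all searched genes that have a copy was not measured, so nothing is read from these counts. No copy of Rpl35a, Rpl34 or Rps2 was in the count table, so Rpl14 is the one gene of the 5 whose copy could be seen. Rpl34 shared 6.93% of the windows of its longest coding transcript. That choice of transcript differs from the main transcript used for the chaperones, so the shares are not on the same measure. Rpl14 was at 41.1 and 86.4 CPM in unoperated and operated BL6 and at 0.392 and 0.599 CPM in MRL, while its one copy, Rpl14-ps1, was at 12.6 and 17.1 CPM in BL6 and 52.3 and 75.5 CPM in MRL. Rps2 was at 77.3 and 113 CPM in BL6 and at 1.29 and 1.12 CPM in MRL. The genes running most against Hspa8 were Vwa5a, Opn1mw and Hal, at correlations of -0.983, -0.977 and -0.977.

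The authors' deposited table gives its own fold changes for 4 of these comparisons. For Hspa8 that table lists log2 fold changes of 1.01 and -0.23 for surgery in BL6 and MRL, and of -3.23 and -4.47 for strain among unoperated and operated samples. For the 9 other genes every sign in the authors' deposited table was the same as here in all 4 comparisons. It calls 5 of 9 for surgery in BL6 and 4 of 9 in MRL, where Bag3 is the 1 gene called here and not there (false discovery rate 0.0563 in the authors' deposited table).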

How the data were processed

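The counts used are whole numbers of reads per gene in each of 16 samples, as the authors deposited them. The submitters' processing notes name FastQC, STAR, edgeR and the build mm10, without versions. The counting program, its annotation, its use of strand, the handling of multiply placed reads and the read length are not given in the sources used here. The authors' deposited table of comparisons lists for each gene a log2 fold change with its p-value and false discovery rate, per the file headers.

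With R 4.3.3 and edgeR 4.0.16, counts were scaled by trimmed mean of M values, and filterByExpr (minimum count 10) kept 11709 of 11710 genes. The quasi-likelihood fit covered 16 samples, with a mean for each of the 4 groups. P-values were adjusted by Benjamini-Hochberg over all genes tested, and genes were called at an adjusted p under 0.05. No replicate pair held identical counts. Copies were found with BLAST+ 2.17.0 against GENCODE M21 transcripts. Scripts were tested on simulated data. Alternatives were other scalings, no filter, DESeq2 1.42.0, limma-voom 3.58.1, a replicate block, counts of copies added, only the groups compared, and each sample left out.

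The members and gene lists were chosen with earlier results of these data known. Named genes are all members, the called gene with the largest rise and fall of each list for surgery in each strain and for each strain comparison, the 5 genes most and 3 least correlated with Hspa8, and every counted gene aligning to a member. Where the rule named many, the text gives some.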

Additional observations from a re-analysis of the deposited data

Results flagged for a closer look

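In 6 of 48 groups of 4 samples tested, for the 10 genes and their counted copies, 1 sample was far from the other 3 (its gap to the nearest sample, over the range of the group, exceeded Dixon's 95% critical value). Chance flags about 1 group in 20. Hspa2 was at 12.3 CPM in operated MRL replicate 4 and at 6.99 to 7.11 CPM in the others. Dnajb1 was at 21 CPM in operated BL6 replicate 4, against 10.6 to 11.7 CPM, and at 24.3 CPM in operated MRL replicate 2, against 9.26 to 11.8 CPM. Bag3 was low in unoperated MRL replicate 3, at 146 CPM against 186 to 189 CPM. Gm15459, the copy of Hspa8, was at 49.4 CPM in unoperated MRL replicate 1, against 66.9 to 69.7 CPM, and at 66.5 CPM in operated MRL replicate 4, against 14.3 to 20.9 CPM.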

How the results depend on the processing

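Of 1071 values of the 9 tested genes under the alternatives, 986 kept their direction and their side of the threshold, 27 lost a call, 7 gained one and 51 values that were never called changed sign. The causes were not tested. The 4 BL6 calls of Hspa4, Hspa9, Dnaja1 and Dnajb1 and the MRL call of Dnaja1 held under every alternative run. Scaling by total counts only moved the median of all genes by 0.14 for surgery in BL6 and for strain among unoperated samples, gave splits of 4443 higher and 2932 lower for surgery in BL6, 742 and 313 for strain unoperated and 994 and 383 operated, and called Bag3 in BL6 (0.48, adjusted p = 0.0178). For surgery in MRL, 3 members were called with total counts only and 3 with limma-voom; leaving out each sample gave 1 to 5 members and 3490 (without operated MRL replicate 3) to 6145 genes. All genes with an interaction numbered 29, but 14 with total counts only, 250 with DESeq2, 2 with the replicate block and 1 to 69 without each sample. With only the groups compared, strain called 1 member unoperated (Dnajb1, 0.53) and 2438 genes, and 575 genes operated. Operated, 0 to 1 member was called without each sample.

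Values that changed sign were Hsph1 for surgery in MRL (-0.0371 with limma-voom, -0.0166 with the replicate block), Hspa2 in the interaction (-0.0287 with total counts only), and among strain differences Hspa4 (0.0692), Hspa2 (0.0515) and Bag3 (0.0664) unoperated with total counts only, Hsp90ab1 unoperated with the replicate block (-0.0011), and, operated, Hspa2 (-0.0081 with DESeq2 size factors, -0.0079 with DESeq2, -0.0131 with only the groups compared), Hsph1 (-0.036 with limma-voom, -0.0027 with the replicate block) and Dnajb1 (-0.0158 with limma-voom). Without each sample the ranges that crossed 0 were, for surgery, -0.65 to 0.0278 (Hsp90aa1, BL6) and -0.20 to 0.19 (Hsph1, MRL), and for the interaction -0.16 to 0.27 (Hspa2), -0.0202 to 0.16 (Hsp90ab1) and -0.0393 to 0.28 (Bag3). For strain unoperated they were -0.65 to 0.0189 (Hsp90aa1), -0.0389 to 0.0433 (Hsp90ab1), -0.069 to 0.19 (Dnaja1) and -0.11 to 0.0074 (Bag3). For strain operated they were -0.0228 to 0.24 (Hspa9), -0.25 to 0.18 (Hspa2), -0.0228 to 0.17 (Hsp90ab1), -0.20 to 0.19 (Hsph1), -0.34 to 0.35 (Dnajb1) and -0.11 to 0.21 (Bag3).

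Sample titles repeat the numbers 1 to 4 in every group, but same-numbered samples deviated together at over 0.1 in at most 3 of 4 pairs of any 2 groups (mean correlation -0.14 for BL6 unoperated and operated, 0.09 for MRL), so the numbers were not taken to pair samples. The mean was highest between strains in the same surgical state, at 0.16 unoperated and 0.16 operated. For different numbers it was -0.05 and -0.04 there, which largely follows from taking deviations from group means and is no separate contrast. What the numbers mark is not known. With the replicate block 5, 5, 0, 0 and 0 members were called, as without it.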
